A study of Homo sapiens with 4 samples.

Results

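H4K20me1, histone H4 carrying a single methyl group on lysine 20, was followed here over 9 protein-coding genes, FAM107B, CRYBG1, CDK17, DENND5A, ATP2C1, ANKRD28, RANBP9, AFDN and ZNRF3. These genes were picked because they hold peaks with a high signal in the first-listed group of the deposited comparison relative to the second-listed group, so that difference is described below and was not tested. Every peak that the authors' annotation gives to one of these symbols and does not class as distal intergenic was taken, which gave 50 of 25514 peaks, and peaks that do not follow the choice are included. The material was Kasumi-1, a human acute myeloid leukemia line with the t(8;21) translocation. The series held 2 libraries from Kasumi-1 cells with SETD8 knocked out by CRISPR/Cas9 (sgSETD8, genotype SETD8 knockout) and 2 libraries from Kasumi-1 cells with a non-targeting guide (sgNT, genotype WT), each profiled by CUT&Tag, in which an antibody brings a transposase to nucleosomes with the mark, so that fragments cut there can be sequenced. The labels do not say whether the knockout was a clone or a pool of edited cells, nor whether the 2 libraries of each group stem from different cultures.

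The deposited table had 1 value per group, so no replicate spread could be set beside any difference, and no p-value was computed. Its columns name neither the groups nor the libraries. Each value may therefore rest on 1 library of its group or on 2, which was not settled. Treated is named ahead of control in the name of the comparison, so the knockout may be the first-listed group, but no source settles this, and values are given as first-listed and second-listed. Whole reads could be recovered from the log2 values, 2791207 in all peaks of the first-listed group and 2682916 in those of the second-listed group. Without an antibody-free library or a spike-in, a uniform change of the mark could not be seen, and fewer marked cells cannot be told apart from less mark per cell. Of 8 genes fixed as markers of Kasumi-1 cells 5 held at least 1 peak, among them KIT with 10 peaks and RUNX1 with 26, while CD33, MPO and CD38 held 0, and of 7 markers of other cells 2 held a peak, KRT8 and ALB. A peak of this mark is not expression, so these counts do not check the cell type.

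H4K20me1 is placed by SETD8, now named KMT5A, and other enzymes extend it to the dimethyl and trimethyl forms. The mark accumulates late in the cell cycle, is found over the bodies of many transcribed genes, and is known from the inactive X chromosome. The 9 genes belong to no common pathway. CRYBG1 and AFDN encode proteins linked to the cell cortex and to adhesion, and FAM107B encodes a protein known to be induced by heat shock. CDK17, ANKRD28, RANBP9 and ZNRF3 encode proteins of phosphorylation and ubiquitin signalling, and DENND5A and ATP2C1 act in membrane traffic and in the Golgi.

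Of 20 RefSeq start windows of these genes (250 bases before to 50 after a start, GRCh38.p14, found for 8 genes), 8 overlapped one of the peaks. For 4 genes a window lay wholly inside a peak, and the one nearest the peak's centre is shown for each, because these starts are where the mark can be read directly over promoter sequence. FAM107B is shown at chr10:14572326-14572625 (minus strand), inside its peak with the widest difference. DENND5A is shown at chr11:9265277-9265576 (minus strand), ATP2C1 at chr3:130893834-130894133 (plus strand) and AFDN at chr6:167827385-167827684 (plus strand). Sequences run 5′ to 3′ on the gene's strand, and capitals mark CpG dinucleotides.
FAM107B: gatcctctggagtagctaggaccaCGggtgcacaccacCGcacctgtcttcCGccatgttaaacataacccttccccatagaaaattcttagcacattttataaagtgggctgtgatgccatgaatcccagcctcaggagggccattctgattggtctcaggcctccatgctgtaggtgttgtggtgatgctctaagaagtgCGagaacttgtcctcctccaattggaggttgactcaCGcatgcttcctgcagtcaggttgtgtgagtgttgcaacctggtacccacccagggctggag
DENND5A: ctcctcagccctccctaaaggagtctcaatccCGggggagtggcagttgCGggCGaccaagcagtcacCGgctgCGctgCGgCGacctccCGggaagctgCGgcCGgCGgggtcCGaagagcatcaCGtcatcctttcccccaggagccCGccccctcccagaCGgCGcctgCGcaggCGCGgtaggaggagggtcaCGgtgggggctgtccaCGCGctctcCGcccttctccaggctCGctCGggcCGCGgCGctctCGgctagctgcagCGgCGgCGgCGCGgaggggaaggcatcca
ATP2C1: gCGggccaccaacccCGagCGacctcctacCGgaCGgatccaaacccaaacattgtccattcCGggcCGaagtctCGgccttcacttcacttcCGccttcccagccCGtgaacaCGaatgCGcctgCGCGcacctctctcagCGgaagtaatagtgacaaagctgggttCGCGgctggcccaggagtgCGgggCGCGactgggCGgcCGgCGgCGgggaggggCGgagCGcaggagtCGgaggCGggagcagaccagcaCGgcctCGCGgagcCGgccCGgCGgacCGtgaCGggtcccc
AFDN: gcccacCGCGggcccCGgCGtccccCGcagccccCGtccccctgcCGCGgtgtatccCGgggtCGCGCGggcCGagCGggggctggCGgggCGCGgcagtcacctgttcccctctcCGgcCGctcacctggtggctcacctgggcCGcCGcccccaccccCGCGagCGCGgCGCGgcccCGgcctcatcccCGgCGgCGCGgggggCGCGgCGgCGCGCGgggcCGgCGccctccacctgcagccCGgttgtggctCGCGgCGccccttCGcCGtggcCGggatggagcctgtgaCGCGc
The FAM107B window held 5 CpG, against 34 in DENND5A, 36 in ATP2C1 and 49 in AFDN, and the median over 34943 start windows was 14 (quartiles 4 and 28). The log2 ratio of scaled reads, first-listed over second-listed, in the peak around each window was 1.66 for FAM107B, 0.49 for DENND5A, 0.67 for ATP2C1 and −0.07 for AFDN. The window poorest in CpG thus lay in the peak with the highest ratio, and the richest in the one with the lowest. Between them the order was opposite, as ATP2C1 had more CpG than DENND5A and the higher ratio. With 4 windows, and genes picked on this ratio, this is a description only. The letters TGTGGT, the core bound by RUNX factors, were searched on both strands and stood at position −70 from the FAM107B start shown, and in none of the other 3 sequences. They were present in 4 of the 20 windows and in 13.1% of all start windows. CACGTG, an E-box, was in 0 of the 20 and in 7.2% of all windows. A match in these letters is not a bound site.

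Taken over all 50 peaks, the mark was higher in the first-listed group at most positions but far from all to the same degree. The median log2 ratio was 0.78 (quartiles 0.37 and 1.10), against 0.06 (−0.19 and 0.32) over all 25514 peaks. A ratio above 0 was found at 45 of the 50 peaks, where 58.6% of all peaks lay above 0, and a ratio of 1 or more at 16, where 1.5% of all peaks reached that size. Exact 95% intervals, which cover counting error alone, lay wholly above 0 for 38 peaks (17.1% of all peaks), or for 33 (9.12%) when reads were halved as if both ends of each fragment had been counted, a choice made after seeing the data. As the genes were picked on this contrast, nothing is read from these shares. The plot of every peak shows how unevenly the difference was spread among the genes.

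**Figure D1:**
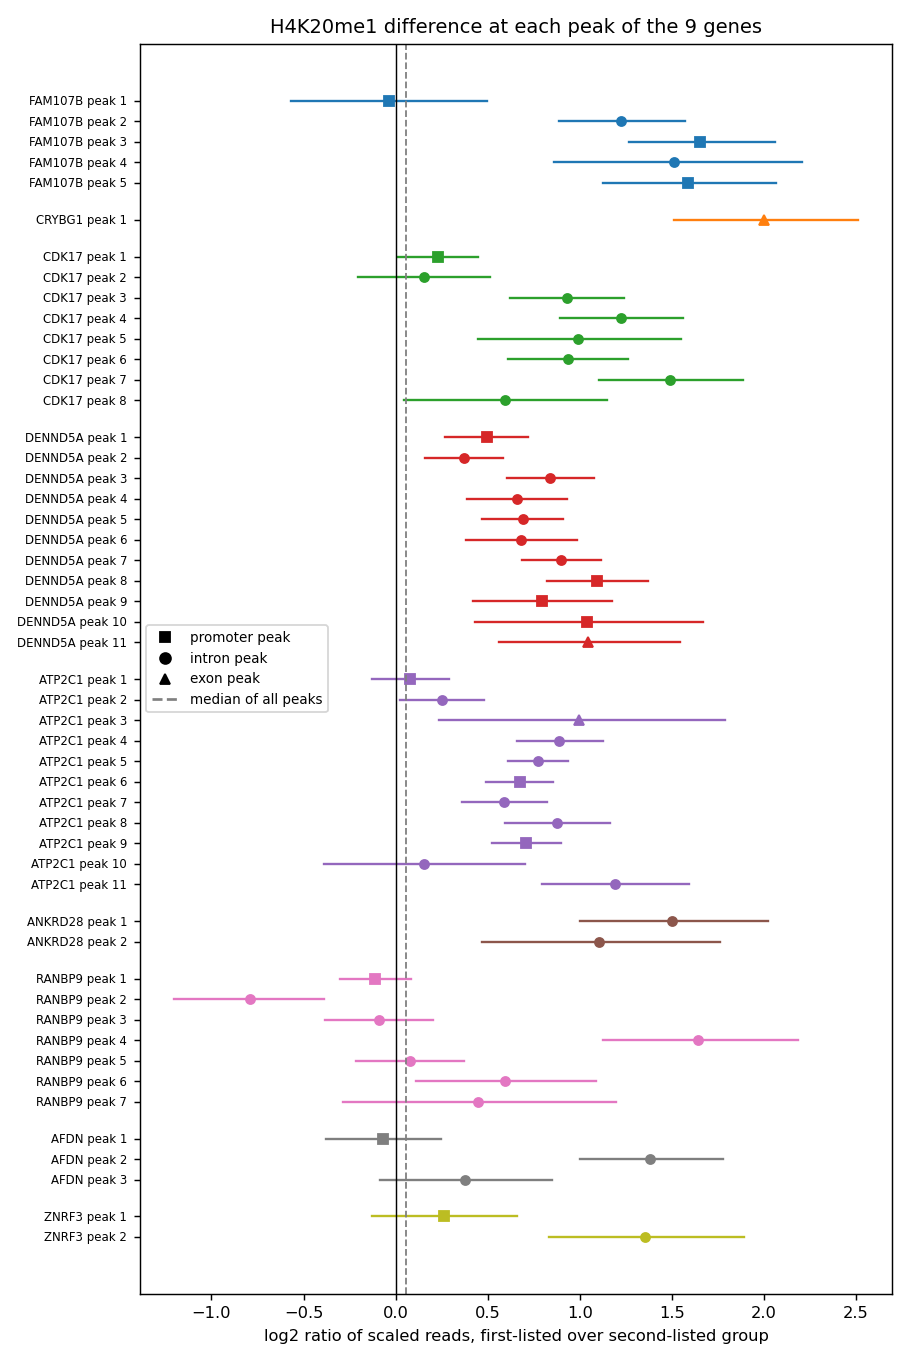
Log2 ratio of scaled H4K20me1 reads, first-listed over second-listed group, for each of the 50 peaks, numbered from the 5′ end of each gene. Points show promoter (square), intron (circle) and exon (triangle) peaks with exact 95% intervals for counting error, and the dashed line marks the median of all peaks at 0.06. Peaks of DENND5A lie between 0.37 and 1.10, while those of RANBP9 run from −0.79 to 1.64.

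After adjustment none of these peaks stayed below 0.05. The authors' deposited table held 0 such peaks among the 50 and 0 among all 25514. The authors' deposited table, made with DESeq per the submitters' processing notes, gave CRYBG1 the smallest adjusted p, 0.0704. Unadjusted p-values under 0.05 were listed in the authors' deposited table for 27 of the 50 peaks in the higher direction (3.37% of all peaks) and for 1 in the lower (1.69%). No values were labelled as those of single libraries, so whether a spread between libraries entered those p-values could not be read directly. FAM107B peak 2 and CDK17 peak 4 had near-equal signal and the same deposited fold change, 1.22. Their unadjusted p in the authors' deposited table was also near-equal, 0.00155 and 0.00138. CDK17 peaks 3 and 6, both with a deposited fold change of 0.93, had unadjusted p of 0.0136 and 0.0143 there. The p-values may thus carry no replicate spread of single peaks, which was not tested.

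CRYBG1, which encodes a protein with beta-gamma crystallin domains also called AIM1, held 1 peak, and it was the one with the widest gap. The peak lay in exon 4 of 22 (chromosome 6, 106519133 to 106521259, hg38), 159 kb from the 5′ end of the gene. It held 169 reads in the first-listed group against 44 in the second-listed group, a log2 ratio of 2.00 (exact 95% interval 1.51 to 2.51). Neither of the 2 start windows of CRYBG1 overlapped a peak, so the gene was represented by this exon alone. Only 4 other peaks lay within 500 kb of the gene, with ratios from −0.25 to 0.37.

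FAM107B, which encodes a small protein known to be induced by heat shock, carried 5 peaks in the 3′ part of its span of 256 kb, and 4 of them were high together. The promoter peak of an internal start (chromosome 10, 14572162 to 14573239) held 221 reads in the first-listed group against 73 in the second-listed group, a ratio of 1.66 (1.27 to 2.06). A second promoter peak, at 14554096 to 14554765, held 153 reads in the first-listed group against 53 in the second-listed group (1.59, 1.13 to 2.07). The 2 intron peaks gave 1.51 with 74 reads in the first-listed group against 27 in the second-listed group, and 1.23 with 236 in the first-listed group against 105 in the second-listed group. The peak farthest upstream, in the promoter of another transcript (14603467 to 14604075), was level, with 60 reads in the first-listed group against 64 in the second-listed group (−0.04, −0.57 to 0.49). The 4 high peaks followed each other along the gene and their intervals all overlapped, while the interval of the level peak met none of them. Without the highest peak the summed ratio of FAM107B was 1.13, against 1.27 (1.07 to 1.46) with it.

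AFDN encodes afadin, which ties nectin adhesion receptors to actin filaments, and is known as a partner of KMT2A in leukemic fusions. Its 3 peaks lay within 13.9 kb of the 5′ end and differed from each other. The promoter peak (chromosome 6, 167826424 to 167828491) held 167 reads in the first-listed group against 182 in the second-listed group, a ratio of −0.07 (−0.38 to 0.24). The next peak, in intron 1 of 5 at 167832100 to 167833429, held 198 reads in the first-listed group against 79 in the second-listed group (1.38, 1.00 to 1.78). The third, 13.9 kb from the 5′ end in the same intron, gave 0.38 (−0.08 to 0.85) with 90 reads in the first-listed group against 72 in the second-listed group. Summed over the gene the ratio was 0.51, and without the middle peak it was 0.07 (−0.18 to 0.33), so AFDN stood among the 9 through 1 peak.

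**Figure D2:**
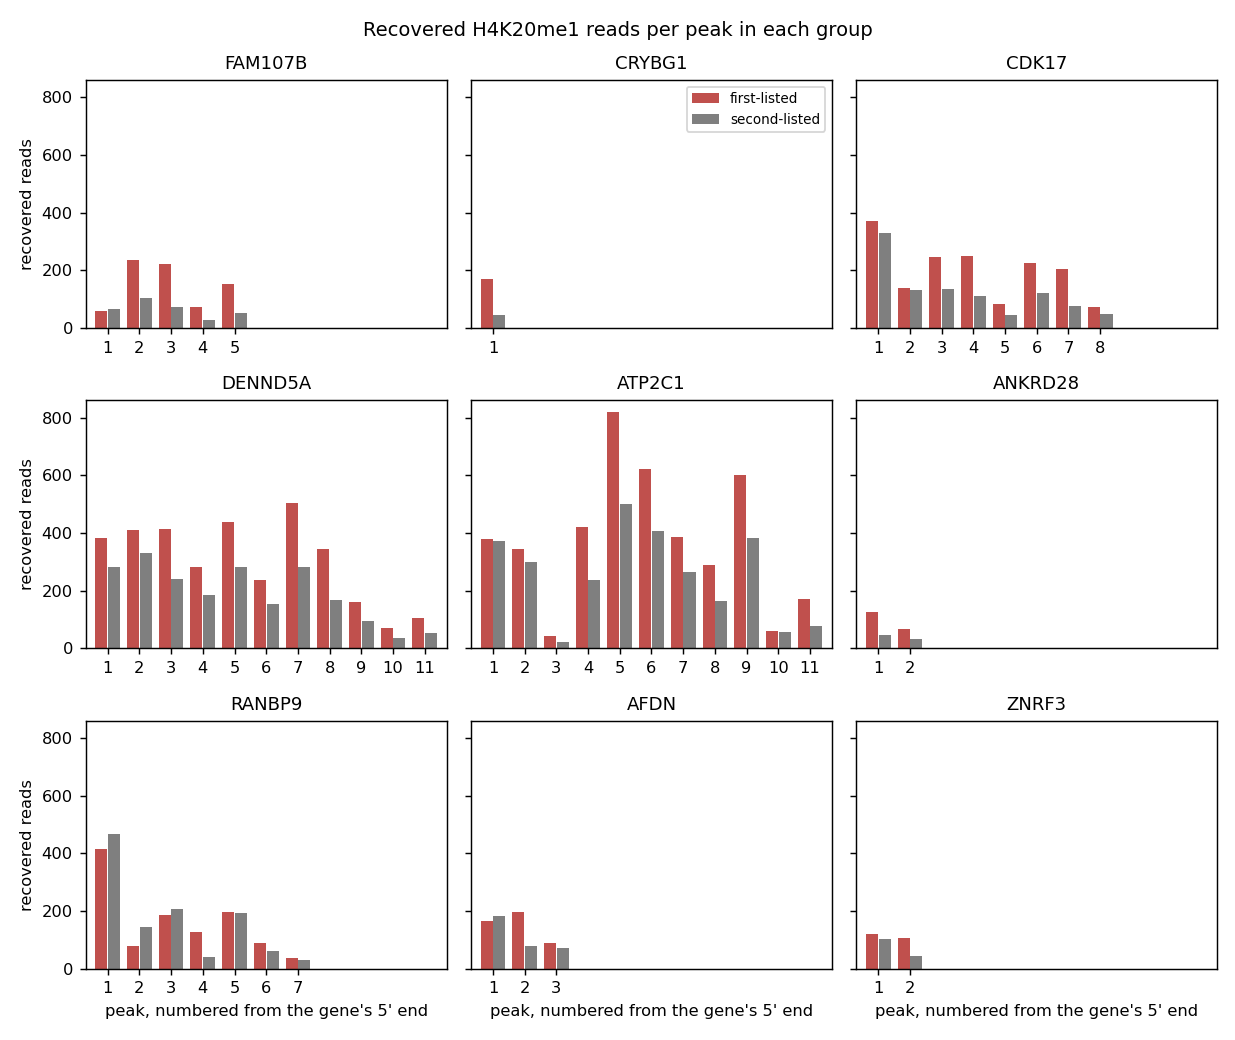
Recovered reads per peak in the first-listed group (red) and the second-listed group (grey), with peaks of each gene numbered from its 5′ end. Each bar is the single value of a group, without replicates. ATP2C1 and DENND5A hold the deepest peaks, up to 820 and 505 reads in the first-listed group, whereas ANKRD28 holds at most 125.

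CDK17, a PCTAIRE kinase of the cyclin-dependent family, held 8 peaks, all above 0. The promoter peak (chromosome 12, 96397967 to 96400399) held 372 reads in the first-listed group against 330 in the second-listed group, a ratio of 0.23 (0.01 to 0.45). A peak 4.6 kb from the 5′ end was as close to level, with 139 reads in the first-listed group against 130 in the second-listed group (0.15, −0.20 to 0.51). Farther into intron 1 of 16 the gap was wide. The peak at 96351026 to 96352575 held 205 reads in the first-listed group against 76 in the second-listed group (1.49, 1.10 to 1.89), and that at 96373890 to 96375572 held 249 in the first-listed group against 111 in the second-listed group (1.22, 0.89 to 1.56). The other 3 peaks farther into this intron gave 0.93 to 0.99, and the single peak of intron 2 gave 0.59 with 71 reads in the first-listed group against 49 in the second-listed group. The intervals of the 2 peaks nearest the start thus did not reach those of the 2 highest.

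ANKRD28, a regulatory ankyrin subunit of protein phosphatase 6, had 2 peaks, both intronic, both high and both shallow. One in intron 2 of 27 (chromosome 3, 15785193 to 15786116) held 125 reads in the first-listed group against 46 in the second-listed group (1.5, 1.00 to 2.02). The other, in intron 6 of 25 at 15715395 to 15716141, held 66 reads in the first-listed group against 32 in the second-listed group (1.10, 0.47 to 1.76). None of the 4 start windows of ANKRD28 overlapped a peak, and the nearest peak outside the gene, 65.3 kb away, gave 0.59.

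RANBP9 did not follow the other genes. The gene, which encodes a scaffold subunit of the CTLH ubiquitin ligase, held 7 peaks, of which 4 were above 0 and 3 below. In intron 2 of 13 the peak at chromosome 6, 13674499 to 13675190, held 126 reads in the first-listed group against 42 in the second-listed group (1.64, 1.13 to 2.18). In intron 1, at 13702847 to 13703452, the order was opposite, with 80 reads in the first-listed group against 144 in the second-listed group (−0.79, −1.20 to −0.39). The deepest peak, at the promoter, was level at 416 reads in the first-listed group against 467 in the second-listed group (−0.11, −0.30 to 0.08). In the authors' deposited table the unadjusted p was 0.000127 for the high peak and 0.0498 for the low one, and neither had an adjusted p under 0.05. Summed over its 7 peaks RANBP9 had 1133 reads in the first-listed group against 1144 in the second-listed group, a ratio of 0.04 (−0.08 to 0.16), which became −0.07 when both columns were given the same total of reads in peaks. By the sum it ranked 1990 among 3131 protein-coding genes with at least 2 peaks and 100 reads in each column.

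ZNRF3, a membrane ubiquitin ligase that removes Wnt receptors from the cell surface, had 2 peaks. Its promoter peak (chromosome 22, 28883316 to 28885293) held 120 reads in the first-listed group against 104 in the second-listed group (0.26, −0.13 to 0.66). The intron 1 peak 72.2 kb from the 5′ end, at 28955458 to 28956125, held 108 reads in the first-listed group against 44 in the second-listed group (1.35, 0.83 to 1.89). As in AFDN, the summed ratio of 0.68 was 0.26 (−0.13 to 0.66) without the high peak.

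DENND5A, a DENN-domain exchange factor for Rab GTPases, differed over its whole length. All 11 peaks were above 0, from 0.37 to 1.10, and all 11 intervals lay above 0. The promoter peak (chromosome 11, 9263254 to 9265607) held 383 reads in the first-listed group against 283 in the second-listed group (0.49, 0.27 to 0.72). The highest, at 9208891 to 9210006, held 343 reads in the first-listed group against 167 in the second-listed group (1.10, 0.82 to 1.37), and that in exon 12 of 23, 105 kb from the 5′ end, held 107 in the first-listed group against 54 in the second-listed group (1.04, 0.56 to 1.54). Summed reads were 3345 in the first-listed group against 2108 in the second-listed group, a ratio of 0.72 (0.64 to 0.80). A further peak (9137672 to 9139859) overlaps the gene's 3′ end, and the annotation gives it to the promoter of its neighbour SCUBE2. This peak gave 0.75 (0.44 to 1.06), which does not show how far the difference reaches past the gene. The distal intergenic peak 8.0 kb upstream of the gene gave 0.31 (−0.17 to 0.80).

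ATP2C1, which encodes the Golgi pump for calcium and manganese known as SPCA1, was the most deeply covered of the genes and also had 11 peaks above 0. The peak nearest the 5′ end (chromosome 3, 130853453 to 130855789) was level, with 380 reads in the first-listed group against 374 in the second-listed group (0.08, −0.13 to 0.29), and the next one gave 0.25 (0.02 to 0.48). From 17.9 to 76.3 kb into the gene, 7 peaks gave 0.59 to 0.99. The deepest of them, at 130887046 to 130889526 in intron 1 of 26, held 820 reads in the first-listed group against 500 in the second-listed group (0.77, 0.61 to 0.93). A promoter peak of an internal start, which holds the ATP2C1 window printed above, had 622 reads in the first-listed group against 406 in the second-listed group (0.67, 0.49 to 0.86). Near the 3′ end, in intron 26 of 26, the ratio was 1.19 (0.79 to 1.59) from 171 reads in the first-listed group against 78 in the second-listed group. A peak beyond it in the same intron, given by the table to the neighbouring ASTE1, held 177 reads in the first-listed group against 90 in the second-listed group (1.03, 0.66 to 1.42). Between these regions a weaker peak in intron 19 gave 0.15 (−0.39 to 0.70). The exon peak 17.9 kb into the gene was listed as exon 1 of 1 of a transcript with no gene number, and whether it belongs to ATP2C1 was not settled.

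**Figure D3:**
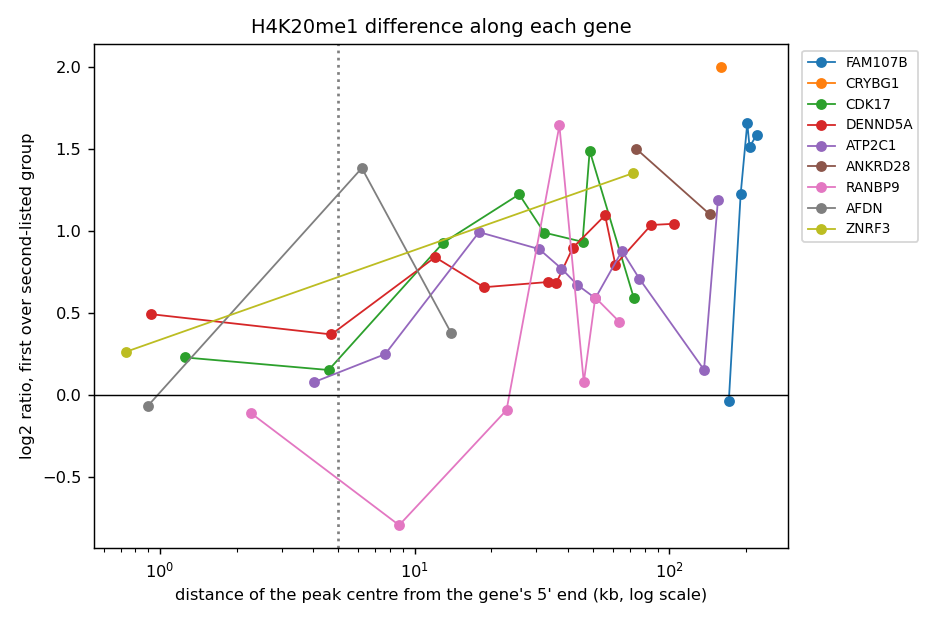
Log2 ratio, first-listed over second-listed group, of each peak against the distance of its centre from the 5′ end of the gene's RefSeq span (kb, log scale), 1 line per gene. Left of the dotted line at 5 kb all 8 peaks are at or below 0.49, while beyond it 16 of 42 are at 1 or more.

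Within genes, the wide differences lay away from the 5′ end of the RefSeq span. Peaks at internal starts count as interior here, among them the FAM107B promoter peaks at 1.66 and 1.59. By annotation class, the 14 promoter peaks had a median of 0.58 (quartiles 0.12 and 0.98). The 33 intron peaks had 0.84 (0.45 and 1.19). The 8 peaks within 5 kb of the 5′ end of a gene, from 6 genes, had a median ratio of 0.19 (quartiles 0.04 and 0.29), none reached 1 and 2 were below 0. The 42 peaks farther in had a median of 0.89 (0.61 and 1.21), with 16 at 1 or more. Peaks near the start were deeper, with a median of 376 reads in the first-listed group against 306.5 in the second-listed group, while the others had 191.5 in the first-listed group against 87.5 in the second-listed group, and the part of depth in this was not tested. In all 6 genes with both kinds of peak the interior median exceeded the near-start median, by 0.37 in RANBP9 to 1.09 in ZNRF3 and by a median of 0.71. Over 2071 genes with both kinds the interior was higher in 54.5%, by a median of 0.04 (quartiles −0.23 and 0.32). The 5 kb limit was set after seeing the data, and the genes were picked through high peaks, most of which lie in the interior, so the 2 figures are a description and not a contrast between the genes and the rest.

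Neighbouring peaks were described beside those of the genes. Within 500 kb on either side of the genes 73 peaks were found outside their spans, of which 54 were above 0 and 1, near DENND5A, reached a ratio of 1. Flanking medians ran from −0.04 around CRYBG1 to 0.48 around ATP2C1, where only 2 such peaks lay, and 7 of the 8 were above the median of all peaks, 0.06. The median of a gene's own peaks was higher than the flanking median in 7 of the 8 genes with flanking peaks, and RANBP9 was the exception with 0.08 inside and 0.27 outside. Since the genes were picked for high ratios and their neighbours were not, nothing is read from this order. AFDN had no other peak within this distance. The nearest outside peak gave 0.81 around FAM107B, 62.9 kb from the gene, and 0.95 around ATP2C1, 104 kb from it.

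**Figure D4:**
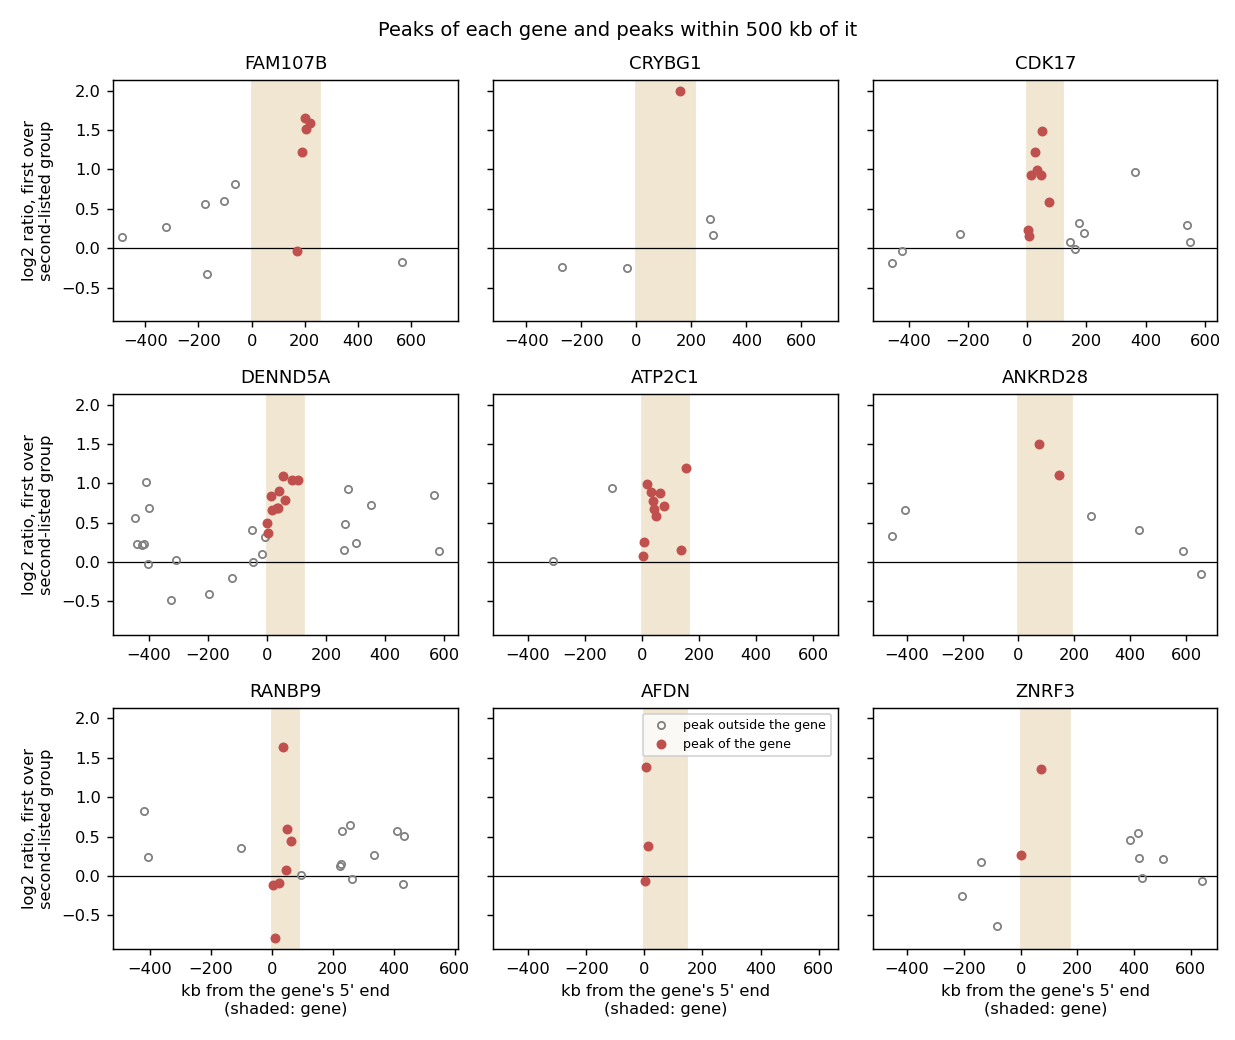
Log2 ratio, first-listed over second-listed group, of the peaks of each gene (filled) and of other peaks within 500 kb (open), against distance from the gene's 5′ end in kb. Shading marks the gene. Open points lie on both sides of 0 around most genes, as do filled points in RANBP9, FAM107B and AFDN. The genes were chosen for high filled points.

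The genes were long. The choice did not use span itself, but a gene with more peaks has more chances to hold a high one. Span and number of peaks are therefore not independent of the choice. They covered a median of 166 kb, against 41.4 kb for the 7788 protein-coding genes with a peak, and held a median of 5 peaks, against 1. Their peaks had a median width of 1167 bp, against 1132 bp for all peaks outside distal intergenic sequence. The peaks were also deep, but the choice for a high first-listed value takes part in this. In the first-listed group their median was 197.5 reads, and that of all peaks outside distal intergenic sequence 84, while in the second-listed group these medians were 116.5 and 82. Introns held 66.0% of the 50 peaks and promoters 28.0%, against 47.1% and 44.4% of the 19703 peaks outside distal intergenic sequence, and first introns alone held 44.0% against 19.2%. With 22 first intron peaks shared mainly among CDK17, DENND5A and ATP2C1, these shares rest on few genes.

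Summed over all peaks of a gene, the order was CRYBG1 (2.00), ANKRD28 (1.35, 0.96 to 1.75), FAM107B (1.27), CDK17 (0.73, 0.62 to 0.85), DENND5A (0.72), ZNRF3 (0.68, 0.38 to 0.99), ATP2C1 (0.63, 0.56 to 0.70), AFDN (0.51, 0.30 to 0.72) and RANBP9 (0.04). Intervals overlapped between most neighbours in this order, with those of FAM107B and CDK17 apart, and those of AFDN and RANBP9 apart. Of the 3 genes with at least 8 peaks, CDK17 ranked 4, DENND5A 5 and ATP2C1 11 among 293 such genes, whose median ratio was 0.13. In each of these 3 every peak was above 0, which held for 10.6% of the 293 genes. Among the 8 members with at least 2 peaks 5 had every peak above 0, where 31.0% of genes with at least 2 peaks did. Ranked instead among the 3131 protein-coding genes named for RANBP9, FAM107B came 2, CDK17 42, DENND5A 46, ZNRF3 63, ATP2C1 101 and AFDN 231. CD34, which is not a member, ranked 1 there with 1.31. CRYBG1, with 1 peak, and ANKRD28, with 78 reads in the second-listed group, fell short of the limits and were not ranked. Their ratios of 2.00 and 1.35 were above that of CD34. The high ranks of members follow from the choice of genes.

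**Figure D5:**
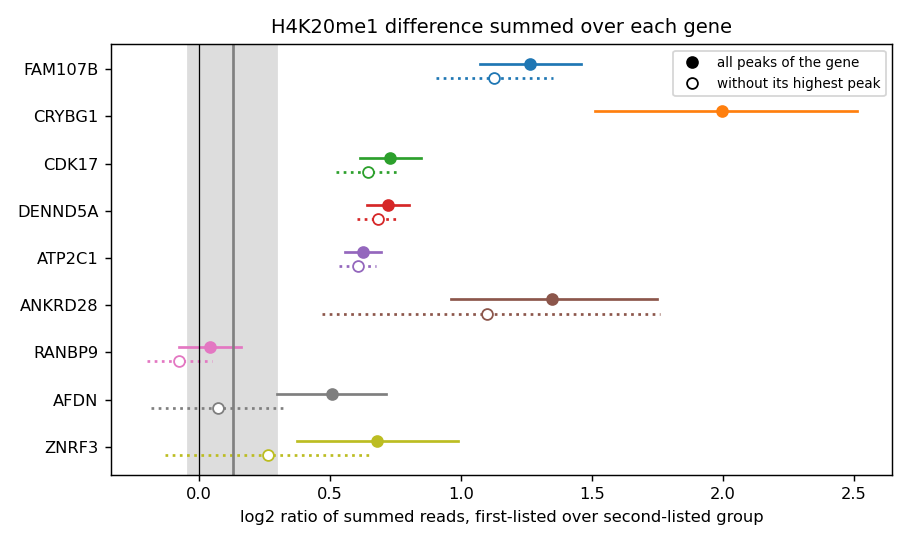
Log2 ratio of reads summed over each gene, first-listed over second-listed group, with exact 95% intervals for counting error, with all peaks (filled) and without the highest peak (open, dotted). The grey band runs between the quartiles of 3131 protein-coding genes, around their median of 0.13. AFDN and RANBP9 come to 0.07 and −0.07 without their highest peak, while CDK17, DENND5A and ATP2C1 stay between 0.61 and 0.69.

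The 5 other protein-coding genes with the highest summed ratio, over 2 or more peaks and at least 100 reads in each column, were CD34, NEDD9, GAB2, NCDN and PAM. CD34, a surface marker of stem and progenitor cells, held 275 reads in the first-listed group against 115 in the second-listed group over 2 peaks (1.31, 1.00 to 1.64). GAB2, a docking protein of receptor signalling, came closest to CDK17 and DENND5A in form, with 6 of 6 peaks above 0, 1151 reads in the first-listed group against 601 in the second-listed group, and a ratio of 0.99 (0.85 to 1.14). NEDD9, an adhesion scaffold, gave 1.03 (0.76 to 1.32), PAM, which amidates secreted peptides, 0.93 (0.64 to 1.23), and NCDN, a neuronal cytoplasmic protein, 0.95 (0.62 to 1.28). Likeness here means the size of a single ratio and nothing more.

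Genes that work with the 9, or resemble them, are given for comparison. Among 101 partner genes in 8 lists, 65 held 180 peaks, of which 2 reached a ratio of 1 (1.5% of all peaks did). The median summed ratio of these 65 genes, taken without a limit on peaks or reads, was 0.11. Over the 3131 protein-coding genes with at least 2 peaks and 100 reads in each column it was 0.13, so the sets were filtered differently. By the authors' deposited table, 9 of these 180 peaks (5.0%) were higher at unadjusted p under 0.05, against 3.37% of all peaks, and 0 were lower, against 1.69%. Of the CTLH ligase around RANBP9, 7 of 10 genes held a peak (median 0.06), from RANBP10, its close relative, at 0.90 (0.58 to 1.23) to MKLN1, muskelin, at −0.38 (−0.76 to 0.00). Protein phosphatase 6, with ANKRD28, had a median of 0.08 over 5 of 6 genes, from its regulatory subunit PPP6R3 at 0.23 (0.16 to 0.30) to the catalytic subunit PPP6C at −0.20 (−0.63 to 0.22). Of the kinases and cyclins akin to CDK17, 4 of 8 held a peak (median 0.01), and CCNY, cyclin Y, gave 0.47 (0.40 to 0.54) with 19 of 20 peaks above 0, while CDK14 gave −0.10 (−0.34 to 0.13).

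DENN exchange factors and their Rab proteins had peaks at 12 of 21 genes, with a median of 0.23, from DENND4A (0.73, 0.50 to 0.97) to DENND1B (−0.34, −0.67 to −0.02). Cation pumps of the Golgi, endoplasmic reticulum and plasma membrane with related carriers had 7 of 11 (median 0.10), and the plasma membrane calcium pump ATP2B1 gave 0.88 (0.60 to 1.17) from 1 peak, against −0.21 (−0.66 to 0.24) for ATP2B4. The nectin and adherens junction list had 11 of 17 genes with a peak (median 0.23), between NECTIN2 at 0.52 (0.23 to 0.80) and F11R, a junctional adhesion molecule, at −0.61 (−1.10 to −0.14). Wnt receptors, R-spondins and their partners had 16 of 25 (median 0.15), with FZD6, a Frizzled receptor, at 0.68 (0.28 to 1.08) and RSPO3, a ligand that keeps ZNRF3 from acting, at −0.40 (−0.79 to −0.02). The relatives of CRYBG1 and FAM107B had 3 of 3 genes with a peak (median −0.14), with CRYBG3 at −0.02 (−0.42 to 0.37) and CRYBG2 at −0.17 (−0.61 to 0.27).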

How the data were processed

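H4K20me1 CUT&Tag was profiled in 4 Kasumi-1 libraries, 2 per group, with hg38, cutadapt, Bowtie2 and DESeq named in the submitters' processing notes; their versions, the peak caller and the handling of duplicates are not stated there. The authors deposited, for each peak, log2 of scaled reads in 1 column per group, with their log2 fold change. Unadjusted and adjusted p-values are also as deposited by the authors. The header names columns only by number, so meanings were read from the values. Which libraries entered each column could not be read from them. All low log2 values (1.5 to 5.5) equal log2 of a whole number plus a constant (0 in the first-listed, −0.057 in the second-listed column) within 0.0051, which gave whole reads. Above 144 reads, which 32 of the 50 peaks exceed in the first-listed group, rounding of the table makes them approximate. Low read numbers of 2 to 7 were even in 75.5% and 86.9% of cases, so both fragment ends may have been counted, and intervals are then too narrow. Ratios differ from the deposited fold changes by at most 0.012.

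Peaks were taken by gene symbol, leaving out 1 distal intergenic peak. Sums and exact Clopper-Pearson 95% intervals (SciPy 1.17.1, Python 3.11.15) cover counting error only, and with 1 value per group no test was made. Gene spans and start windows came from RefSeq GRCh38.p14. Named were all 9 genes, per partner list the genes with the highest and lowest summed ratio among those with at least 50 reads in each column, and the 5 highest other genes by the rule given with them. Genes, lists and members were chosen with earlier results of these data known. Read recovery and intervals were checked on simulated data. The simulated reads were drawn independently, so the check does not cover intervals where both fragment ends were counted.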

Additional observations from a re-analysis of the deposited data

How the results depend on the processing

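The median log2 ratio of 0.78 over the 50 peaks was 0.67 with columns scaled to equal reads in peaks and 0.73 without scaling, both of which follow from the constant subtracted (0.11 and 0.06), and 0.67 without the highest peak of each gene. With choices made after seeing the data it was 0.84 without ATP2C1, 0.89 farther than 5 kb from the 5′ end and 0.19 within it, and it stayed between 0.77 and 0.81 without DENND5A, over RefSeq spans and as a median over genes. The median over genes of the summed ratio, 0.72, was 0.61 with equal reads in peaks and 0.63 without the highest peaks, where CRYBG1 has no value. A ratio of 1 or more was reached by 16 of 50 peaks, and by 7 of 41 with the highest peaks left out, while 34 reached 0.5 and 5 reached 1.5 (13.5% and 0.282% of all peaks), as looser and stricter limits must give. By the authors' deposited table, the count of 27 higher peaks with unadjusted p under 0.05 became 0 at an adjusted p under 0.05, 1 at 0.1 and 1 at 0.2. Of 71 single-gene values under alternatives 67 stayed within their counting interval, and AFDN and ZNRF3 (without their highest peak) and DENND5A and ATP2C1 (equal reads in peaks) left it. RANBP9 took values below 0 under 3 of them, down to −0.07. Signal filters, assignment by host gene and an added read left counts within 1.5 times. No paired analysis was possible because the table holds 1 column per group, for which reason no replicate could be left out either. Depth also limits single peaks: the interval for ATP2C1 at 44 reads in the first-listed group against 23 in the second-listed group ran from 0.23 to 1.79.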
